A study of Mus musculus with 10 samples.

Results

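The 38 genes described here build the contractile machinery and the energy supply of skeletal muscle, and they were read in whole back skin of 21-day-old mice. They were chosen by name from a list of 38 symbols. Each symbol was matched to an Ensembl gene among the 46078 listed in the deposited count table. The rule itself uses no measured value, but the symbols were chosen with earlier results of these data known. The 38 symbols matched 39 identifiers, because Pygm has a further entry without a read in any library. After a filter on low counts, 36 of the 38 were among the 16909 genes tested. Tnnc2 and Tnnc1, which encode troponin C, stayed under the filter and are given as read counts.

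Skeletal muscle contracts when a nerve impulse opens voltage sensors in the cell membrane, which in turn open calcium release channels of the sarcoplasmic reticulum. The released calcium binds troponin on the actin filament, so that myosin can pull actin toward the middle of the sarcomere, the repeating unit between the Z-discs. Creatine kinase, glycogen breakdown and glycolysis supply the ATP. In mouse back skin, a thin sheet of skeletal muscle called the panniculus carnosus lies under the fat layer and is known to consist largely of fast fibres.

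Newborn C57BL/6 mice kept free of specific pathogens were colonised with 1 of 2 staphylococci, and the comparison asks how skin transcripts differ between them. The SA group carried Staphylococcus aureus SF8300 and the SE group Staphylococcus epidermidis Tü3298. Both received 100 µl of bacteria on the skin every other day from day 3 to day 19. At day 21 trunk skin was lightly defatted and an 8 mm back punch was taken for RNA. Each group held 5 libraries. No uncolonised skin was analysed here, so every difference is between the 2 bacteria. Whether the libraries are from separate mice is not stated in the labels, and each p-value therefore refers to the spread among these 10 libraries, which may in part be technical.

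Each library held 21140654 to 25417851 gene reads. Levels are given as CPM, read counts scaled to library size with edgeR's TMM factors, and levels of different genes are compared only as CPM per kilobase of exon. On the first principal component of all tested genes, SE libraries 3, 4 and 5 lay at 37.9 to 54.3, away from the rest at -32.5 to -9.34. The summed CPM of 11 hair follicle genes was 34.8, 93.0, 725, 387 and 2415 in SE libraries 1 to 5. In the SA libraries it was 33.1 to 69.7. These genes belong to the hair shaft and the inner root sheath or regulate them. The largest in SE library 5 were Tchh at 1204 CPM and Krt71 at 674. Results for the muscle genes are therefore given with and without SE libraries 3, 4 and 5.

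Over the 10 libraries, log2 CPM of Acta1, Mylpf, Pvalb and Casq2 correlated with the mean of the other tested members at 0.95, 0.94, 0.88 and 0.81. Other members, such as Tnnt1 at 0.54, lay lower. Promoters of the 4 members named first are shown. Each is the 250 bases upstream of the annotated start on the gene's own strand, 5′ to 3′, from RefSeq on GRCm38.p6, a patch release of the build named in the submitters' processing notes. None of the 4 windows overlaps an annotated exon of the GENCODE annotation of that build. The Mylpf window nevertheless lies within the Mylpf gene of GENCODE, which spans 127208890 to 127214298 and starts upstream of the RefSeq start used. Capitals mark matches, on either strand, to the E-box CANNTG, bound by the MyoD family, to the MEF2 motif or to the CArG box, bound by serum response factor. No marked matches share bases in these windows.
Acta1, skeletal alpha-actin, chr8:123894776-123895025, minus strand: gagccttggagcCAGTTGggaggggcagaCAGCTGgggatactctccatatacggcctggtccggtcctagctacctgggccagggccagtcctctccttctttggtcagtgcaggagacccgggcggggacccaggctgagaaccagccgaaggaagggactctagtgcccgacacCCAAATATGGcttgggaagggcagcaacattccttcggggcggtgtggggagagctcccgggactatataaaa
Mylpf, fast myosin regulatory light chain, chr7:127211358-127211607, plus strand: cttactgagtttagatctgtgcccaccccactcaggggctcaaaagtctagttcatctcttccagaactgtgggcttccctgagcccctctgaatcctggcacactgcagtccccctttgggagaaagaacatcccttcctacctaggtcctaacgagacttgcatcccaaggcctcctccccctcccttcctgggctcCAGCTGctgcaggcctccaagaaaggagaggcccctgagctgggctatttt
Pvalb, parvalbumin, chr15:78206401-78206650, minus strand: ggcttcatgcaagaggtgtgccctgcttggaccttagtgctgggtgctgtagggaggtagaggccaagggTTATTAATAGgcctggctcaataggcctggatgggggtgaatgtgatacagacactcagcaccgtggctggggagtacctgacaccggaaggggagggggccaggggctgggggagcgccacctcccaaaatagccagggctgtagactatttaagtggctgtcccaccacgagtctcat
Casq2, calsequestrin of slow and heart muscle, chr3:102086165-102086414, plus strand: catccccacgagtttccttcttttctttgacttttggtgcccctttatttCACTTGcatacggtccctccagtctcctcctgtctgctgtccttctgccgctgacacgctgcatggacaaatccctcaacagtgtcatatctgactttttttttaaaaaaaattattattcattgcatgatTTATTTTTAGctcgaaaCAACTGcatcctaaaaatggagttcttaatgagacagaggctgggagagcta

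The Acta1 window holds 2 E-boxes and 1 CArG box. Mylpf has 1 E-box, the Pvalb window shown has 1 MEF2 match and no E-box, and Casq2 has 2 E-boxes and 1 MEF2 match. RefSeq windows matched 28 of the 38 members, 36 windows in all, and not Tnnt3, Tnni2, Actn3, Neb, Myoz1, Tcap, Cacng1, Myot, Trdn or Jph1. An E-box was present in 30 of the 36 (83.3%), against 66.2% of all 32851 windows of the same length. MEF2 matches were found in 5 member windows (13.9% against 2.92%), those of Casq2, Myoz2, Pgam2, Pvalb and Ttn. CArG boxes were found in 3 (8.33% against 1.47%), belonging to Acta1 and Ldb3. The MCAT motif CATTCC, bound by TEAD factors, was in 6 (16.7% against 12.6%) and the TATA sequence TATAAA in 3 (8.33% against 12.4%). Both were searched on either strand, and a MEF2 match can contain TATAAA. These shares describe letters in the windows, and binding was not measured.

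Levels per length differed widely among the 38 members, with fast-fibre genes at the top and 4 troponin genes at the bottom. Acta1, the actin of the thin filament, stood highest at 3811 CPM per kilobase on average over the 10 libraries. It was followed by Mylpf at 1923, by Tnnt3, fast troponin T, at 1172, by Pvalb, a calcium buffer of fast fibres, at 1081, and by Myl1, fast essential light chain, at 1039. Within each of the 10 libraries Acta1 lay above Mylpf, Mylpf above the other 3, and Tnnt3 above Myl1. Pvalb lay below Tnnt3 in 6 libraries and above Myl1 in 5, so its place beside them is not resolved. The fast troponin C gene Tnnc2 was at 0.633 and the slow one, Tnnc1, at 0.296. The place of Tnnc2 is uncertain, because 74.0% of its exon bases overlap Ube2c on the opposite strand. The lowest tested members were Tnnt1, slow troponin T, at 3.91 and Tnni1, slow troponin I, at 0.181 CPM per kilobase.

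**Figure D1:**
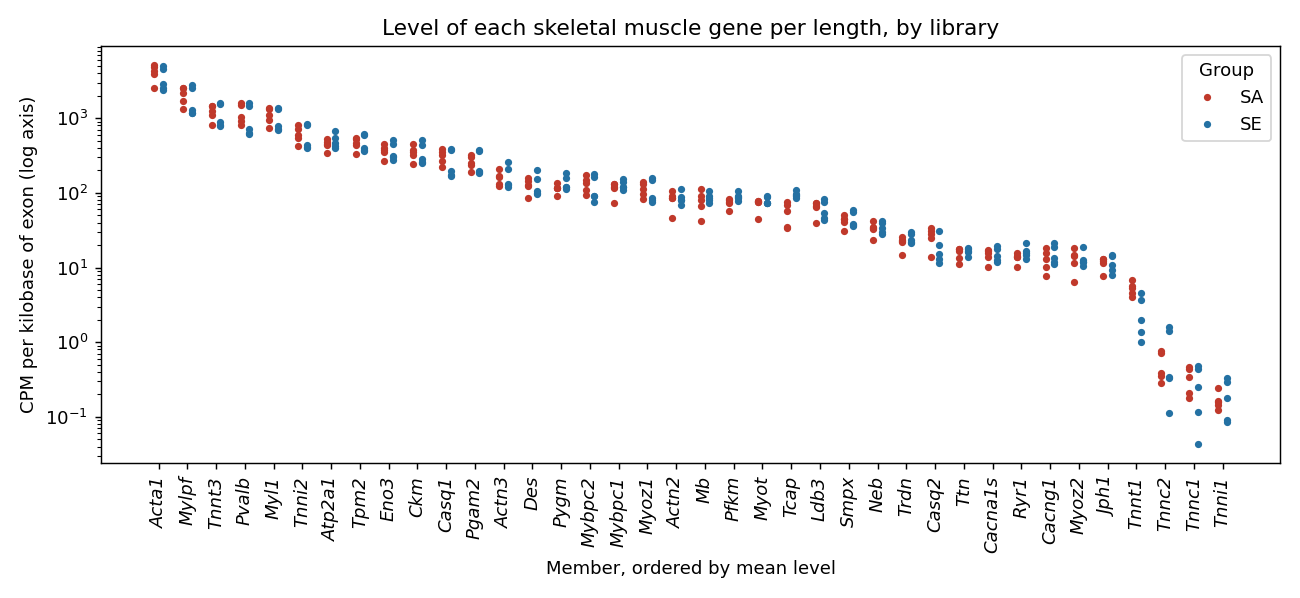
Level of each of the 38 members in CPM per kilobase of exon on a log axis, with 1 point per library (SA red, SE blue) and members ordered by mean level. Acta1 averages 3811 and Tnni1 0.181, and within 1 gene the points of both groups overlap except for Tcap.

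The skeletal identity of the signal was checked against other muscle. The fast myosin heavy chain Myh4 averaged 3981 ± 862 CPM in the SA libraries and 3808 ± 1515 in the SE libraries (SD, n = 5 each). The slow one, Myh7, had 0, 28, 2, 25 and 0 reads in SA libraries 1 to 5 and 1 read in each SE library, so that SA libraries 2 and 4 hold nearly all of them. Heart markers were low. Of the 8, 4 passed the filter on low counts, and Nppa, atrial natriuretic peptide, had 0 reads in SA and 1 in SE. The summed CPM of the 8 was 10.9 to 12.8 in SA and 11.5 to 15.9 in SE. Smooth muscle genes summed to 860.0 to 999 and 897 to 1080.0 CPM over 12 genes.

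The muscle genes varied more between libraries of a group than between the group means. They took 3.28%, 1.90%, 3.19%, 2.85% and 2.60% of gene reads in SA libraries 1 to 5 and 3.40%, 3.46%, 2.18%, 2.0% and 2.01% in SE libraries 1 to 5. The SA mean was 2.76% ± 0.552 and the SE mean 2.61% ± 0.753 (SD, n = 5 each), a gap smaller than either SD. SA library 2 was low among SA libraries, and SE libraries 1 and 2 lay above SE libraries 3 to 5. These 4 low libraries also had the highest shares of listed reads assigned to no gene feature, 5.06% in SA library 2 and 5.05%, 5.58% and 6.59% in SE libraries 3 to 5, against 3.06% to 4.65% in the other 6. The part of that share in the swing of the muscle genes was not tested. In bulk skin, fewer muscle fibres in a punch and less muscle RNA per fibre cannot be told apart.

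Nearly all members took part in this variation. Of the 36 tested, 36 lay above their own mean in SE library 2, 33 in SE library 1 and 29, 28 and 29 in SA libraries 1, 3 and 4. Only 2 did so in SA library 2, 8 in SE library 3, 3 in SE library 4 and 5 in SE library 5, and 12 in SA library 5. The lowest library was SA 2 for 21 members, SE 5 for 8 and SE 4 for 5, and the highest was SE 2 for 16 and SE 1 for 14. The SD of log2 CPM over the 10 libraries had a median of 0.39 over members and 0.22 over all tested genes. It was larger in SE than in SA for 25 of the 36.

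**Figure D2:**
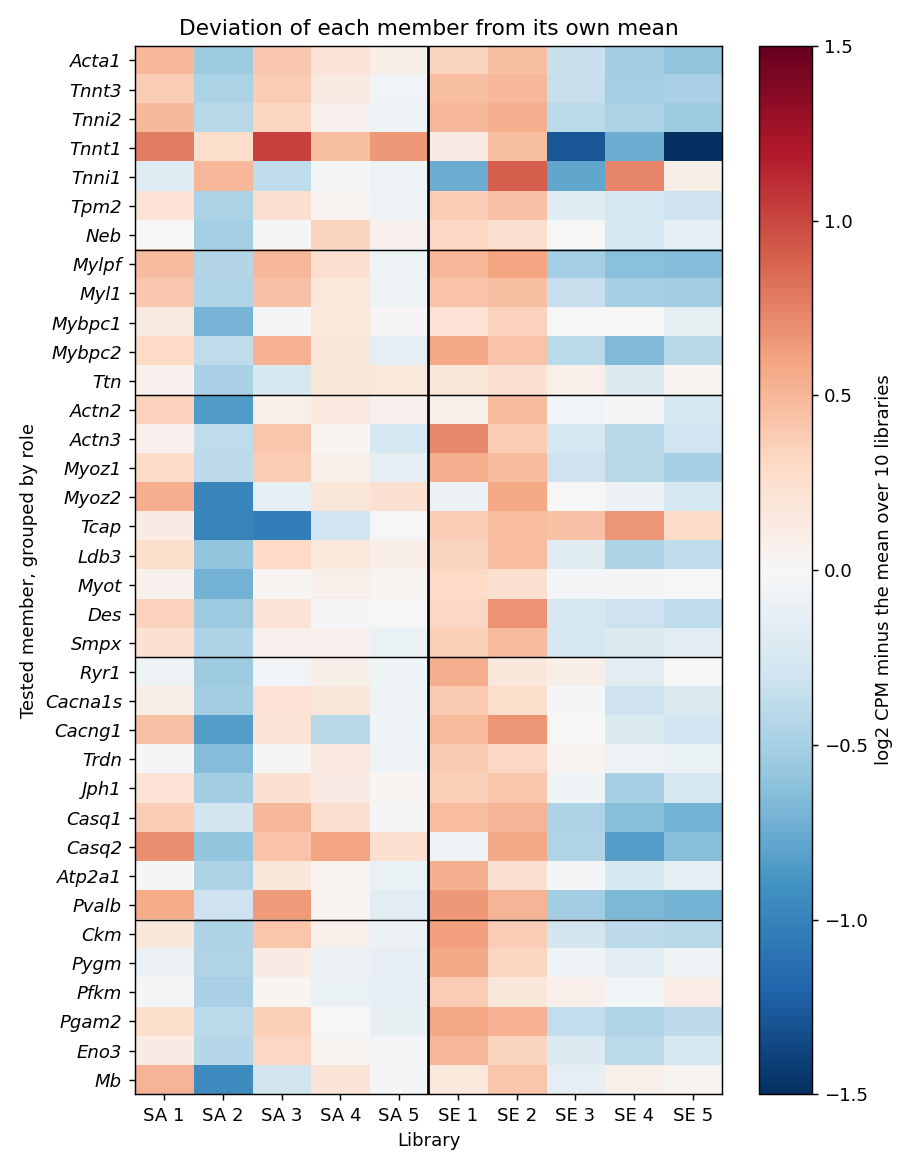
Deviation of log2 CPM from each member's own mean over 10 libraries, for the 36 tested members grouped by role (rows) and the 10 libraries (columns). Most rows are blue in SA library 2 and SE libraries 3 to 5 and red in SE libraries 1 and 2, with Tnnt1, Tnni1 and Tcap as the visible exceptions.

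As a description, the Pearson correlation of a member's log2 CPM with the mean of the other tested members over the 10 libraries had a median of 0.875, and 16 of 36 reached 0.9. These points share library and depth. Tpm2, beta-tropomyosin on the thin filament, was closest to the rest at 0.99. Ldb3, a Z-disc scaffold protein, followed at 0.98, and Des, the desmin filament protein, at 0.97. Tnni1 was farthest at -0.24, with 68 reads in all SA and 79 in all SE libraries. Tcap, the titin cap of the Z-disc, had 0.10 and Tnnt1 0.54, although Tcap had 5816 and 10221 reads.

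In the test of SA against SE no member passed an adjusted p of 0.05 in either direction (edgeR quasi-likelihood test with Benjamini-Hochberg adjustment over all tested genes). The background was as sparse, with 3 genes called lower in SA (0.0177%) and 10 higher (0.0591%). That background count moved with single libraries, from 7 without SA library 2 or 5 and 8 without SA library 1 or 3 to 225 without SE library 1 and 152 without SE library 2. The members' count was 0 in each of these fits. At an unadjusted p under 0.05, 2 members were lower (background 6.53%) and 1 was higher (4.54%), namely Tcap, Pfkm and Tnnt1. DESeq2 called 156 genes lower (0.923%) and 141 higher (0.834%), with 1 member lower, Tcap. In the authors' deposited table, genes numbered 96 when called lower (0.515%) and 119 when called higher (0.638%), and the only member among them was Tcap, with a log2 fold change of -0.59 and an adjusted p of 0.0188.

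Log2 fold changes, SA minus SE, had a median of -0.04 over the 36 members and -0.01 over all tested genes. They ran from -0.81 for Tcap to 1.07 for Tnnt1, with 14 above 0 and 22 below. Without SE libraries 3, 4 and 5, which leaves 5 SA and 2 SE libraries, 38 members passed the filter, and 35 of them lay below 0 with a median of -0.36. The median over all 17614 genes tested there was -0.00154. No member passed the threshold in that fit either (lowest edgeR adjusted p 0.18, background 0.0795% lower and 0.153% higher). Of the 36 members in both fits, 24 had the same sign and 12 changed from above 0 to below it. SE libraries 1 and 2 were the 2 with the most muscle reads.

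**Figure D3:**
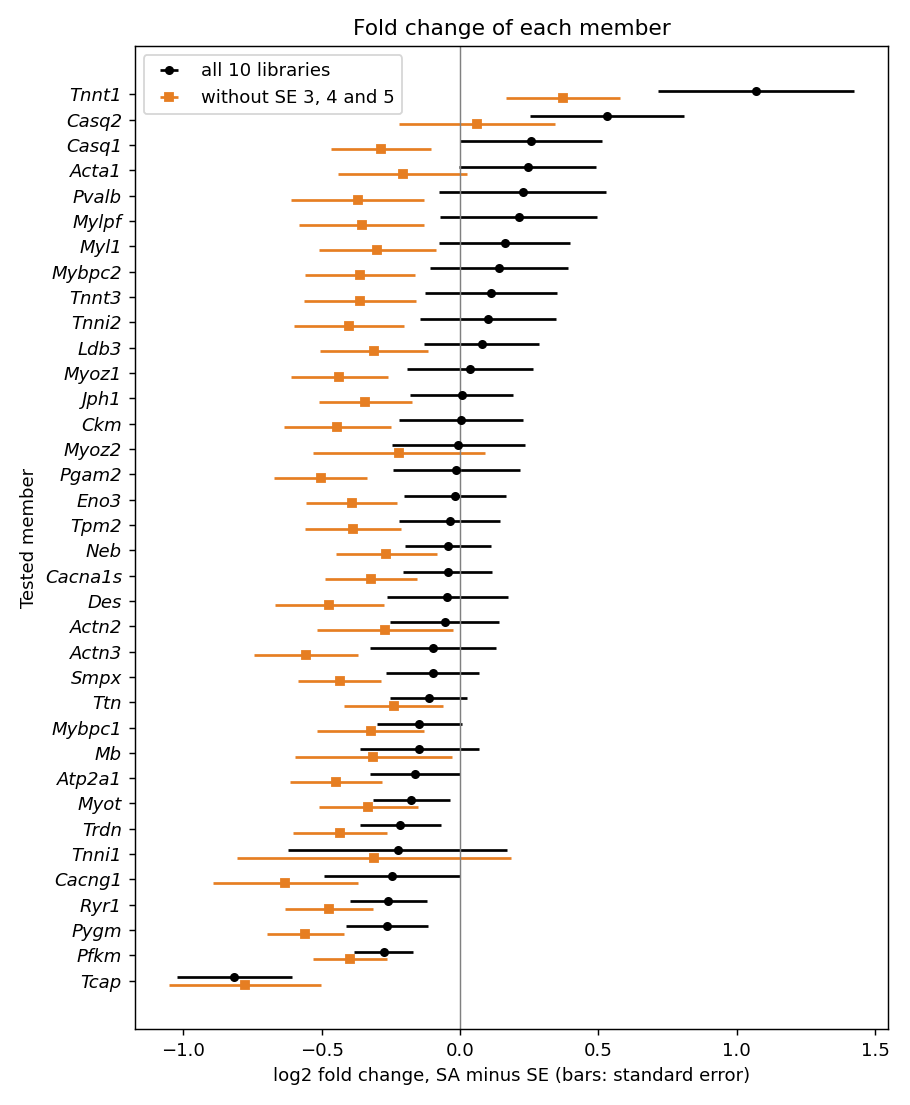
Log2 fold change, SA minus SE, with its standard error for the 36 tested members in all 10 libraries (black) and without SE libraries 3, 4 and 5 (orange). With all libraries 14 members lie above 0, and in the smaller fit all but Tnnt1 and Casq2 lie below it.

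Thin filament genes overlapped between the groups, and Tnnt1 had the highest fold change of all members. Of 9 genes 7 were tested, with 4 fold changes above 0, 3 below and a median of 0.10 (-0.31 without SE libraries 3 to 5). Acta1 (chr8:123891769-123894751, minus strand; all gene positions here are on GRCm38) stood at 7945, 3893, 7432, 6493 and 5976 CPM in SA libraries 1 to 5 and 7059, 7678, 4442, 3899 and 3714 in SE libraries 1 to 5. SA library 2 and SE libraries 3 to 5 were low and the other 6 high. The log2 fold change was 0.24 ± 0.25 (standard error, as after every fold change here) with an edgeR adjusted p of 0.721, and it was -0.21 without SE libraries 3 to 5. Tnnt3, which ties troponin to tropomyosin in fast fibres, ranged over 1289.7 to 2331 CPM in SA and 1257 to 2529 in SE, and Tnni2, the fast inhibitory subunit, over 643 to 1199 CPM in SA and 595 to 1252 in SE. Their fold changes were 0.11 ± 0.24 and 0.10 ± 0.25. Tpm2 had -0.04 ± 0.18, and Neb, nebulin, which spans the length of the thin filament, -0.04 ± 0.16 (edgeR adjusted p at least 0.873 for these 4).

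Tnnt1 (chr7:4504570-4516382, minus strand) was measured at 12.6, 8.89, 15.2, 10.1 and 11.6 CPM in SA libraries 1 to 5 and 8.06, 10.1, 2.98, 4.40 and 2.24 in SE libraries 1 to 5. All SE libraries except 2 lay below the lowest SA library, SA 2 at 8.89 CPM, and SE libraries 3, 4 and 5 were lowest. The log2 fold change was 1.07 ± 0.35 with an edgeR adjusted p of 0.321 (0.0447 to 0.634 over the alternatives), and 0.37 without SE libraries 3 to 5. Set against the mean log2 CPM of the other tested members in the same library, its SA libraries averaged -4.73 ± 0.20 and its SE libraries -6.01 ± 0.60 (SD, n = 5 each), without overlap. Among all tested genes, 0.674% had their 5 SA ratios all above the 5 SE ratios. In a fit added after the data were seen, with the summed myosin heavy chain level as a covariate, Tnnt1 was the only member to pass the threshold, higher in SA by 1.11 on the log2 scale (edgeR adjusted p = 0.0447, background 0.302% lower and 0.438% higher). The hair follicle sums given above are highest in SE libraries 3 to 5, and their part in this result was not tested.

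The fast partner exceeded the slow one in every library for troponin T and troponin I, but not for troponin C. The ratio of Tnnt3 to Tnnt1 per kilobase was 256, 202, 214, 271 and 207 in SA libraries 1 to 5 and 423, 348, 658, 398 and 791 in SE libraries 1 to 5. The log2 ratio of slow to fast averaged -7.83 ± 0.19 over the SA libraries and -8.96 ± 0.51 over the SE libraries (SD, n = 5 each). The groups did not overlap for troponin T. This ratio, which has no test of its own, rests on the low reads of Tnnt1, 1329 in all SA and 642 in all SE libraries. The other pairs overlapped between the groups. For Tnni1 to Tnni2 the log2 ratio had an SA mean of -11.87 ± 0.70 and an SE mean of -11.66 ± 1.05, the opposite order. For Tnnc1 to Tnnc2 the SA mean was -0.60 ± 1.24 and the SE mean -1.36 ± 2.46. Their slow forms had still fewer reads than Tnnt1. Tnni1, slow troponin I, lay at 0.438 to 0.880 CPM in SA and 0.312 to 1.19 in SE with a log2 fold change of -0.22 ± 0.40 (edgeR adjusted p = 0.844). Tnnc1, troponin C of slow and heart muscle, had 39 reads in SA and 31 in SE, and Tnnc2, the fast form, 45 and 72. The Tnnc2 count is uncertain, since 74.0% of its exon bases overlap Ube2c on the opposite strand and whether reads were counted by strand was not given in the sources used here.

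Thick filament genes gave no call, and the light chains followed the library pattern of Acta1. Mylpf (chr7:127208890-127214298, plus strand) was at 2690.2, 1420.0, 2734, 2291 and 1825 CPM in SA libraries 1 to 5 and 2719, 2916, 1351, 1248 and 1229 in SE libraries 1 to 5. The same libraries were high and low as for Acta1, and the log2 fold change was 0.21 ± 0.28 with all libraries (edgeR adjusted p = 0.789) and -0.35 without SE libraries 3 to 5. Myl1 ranged over 1521 to 2806 CPM in SA and 1450.3 to 2839 in SE and had 0.16 ± 0.24. The myosin-binding proteins C, which brace the thick filament, were Mybpc1, the slow form, with -0.15 ± 0.15 and Mybpc2, the fast form, with 0.14 ± 0.25. Ttn, titin, the giant spring between Z-disc and thick filament, had -0.11 ± 0.14 and a range of 1314 to 2089.6 CPM in SA and 1597 to 2157 in SE. Over the 5 genes 3 values were above 0 and 2 below, with a median of 0.14 (-0.32 without SE libraries 3 to 5).

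Z-disc genes held the lowest fold change of the set, that of Tcap, which binds the end of titin. Of 9 genes 2 had fold changes above 0 and 7 below, with a median of -0.05 (-0.43 without SE libraries 3 to 5). Tcap (chr11:98383811-98384953, plus strand) was at 71.8, 32.9, 32.1, 53.4 and 65.5 CPM in SA libraries 1 to 5 and 85.3, 90.9, 89.1, 104 and 80.5 in SE libraries 1 to 5. All 5 SA libraries lay below all 5 SE libraries, as for 0.917% of tested genes, and no member had all SA libraries above SE (1.13% of tested genes). The log2 fold change was -0.81 ± 0.21, a level 1.76-fold higher in SE, with an edgeR adjusted p of 0.174 (0.0167 with DESeq2 to 0.403 over the alternatives). It was -0.78 without SE libraries 3 to 5 and -0.84 with the myosin covariate (edgeR adjusted p = 0.108). Relative to the other members it lay at -2.61 ± 0.49 in SA and -1.68 ± 0.42 in SE (log2, SD, n = 5 each), again without overlap, as for 0.118% of tested genes in that direction.

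The other 8 Z-disc and cytoskeleton genes lay between -0.18 and 0.08. Actn2 and Actn3, the alpha-actinins that anchor actin, had -0.05 ± 0.20 and -0.10 ± 0.23. Myoz1 and Myoz2, which bind calcineurin at the Z-disc of fast and slow fibres, had 0.04 ± 0.23 and -0.01 ± 0.24, and Myoz2 turned to 0.01 when the scaling left out the muscle genes and to 0.005 with total reads only. Ldb3 had 0.08 ± 0.21 and Myot, myotilin, which cross-links actin, -0.18 ± 0.14. Des had -0.05 ± 0.22 and Smpx, a small protein of the muscle cytoskeleton, -0.10 ± 0.17. The edgeR adjusted p was at least 0.645 for these 8.

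**Figure D4:**
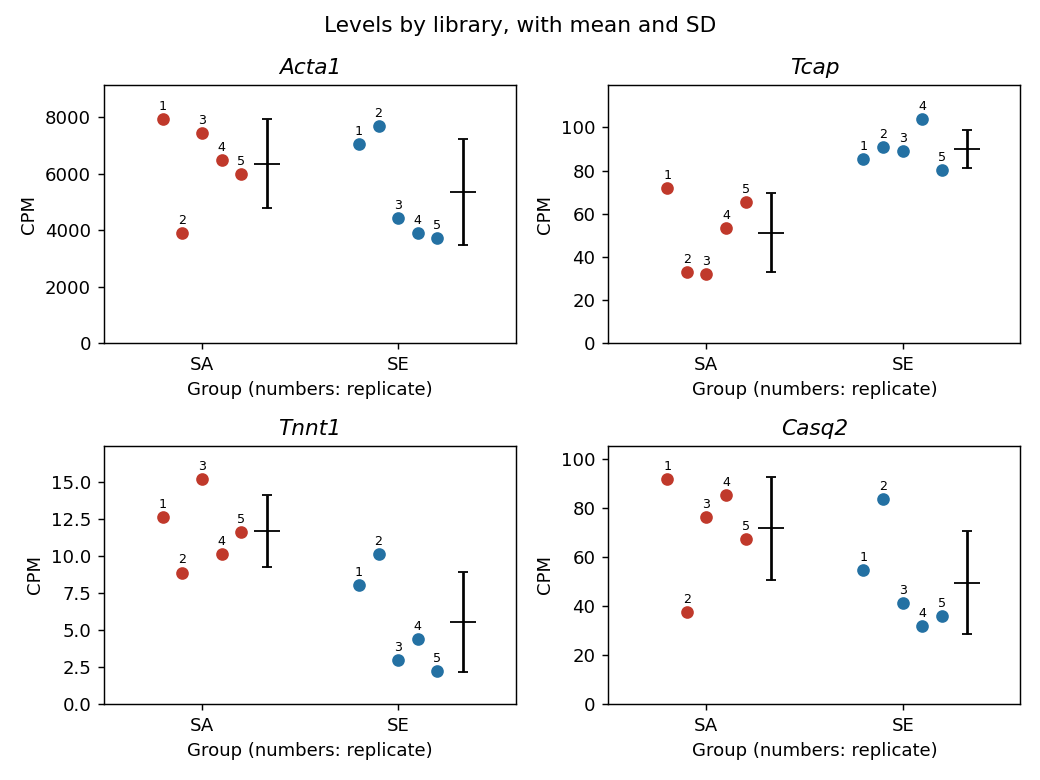
CPM of Acta1, Tcap, Tnnt1 and Casq2 in each library (points, numbered by replicate; SA red, SE blue) with the mean and SD of each group. Tcap lies between 32.1 and 71.8 in SA and between 80.5 and 104.0 in SE, while the other 3 genes overlap between groups.

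Among the 9 genes of calcium release, storage and uptake, calsequestrins and parvalbumin had fold changes above 0 and the release channel below. The split was 4 above and 5 below, with a median of -0.04 (-0.37 without SE libraries 3 to 5). Casq2, which binds calcium in the sarcoplasmic reticulum, was at 91.7, 37.7, 76.1, 85.5 and 67.4 CPM in SA libraries 1 to 5 and 54.6, 83.7, 41.4, 31.9 and 36.1 in SE libraries 1 to 5. SA library 2 was low in SA and SE library 2 high in SE, and the fold change of 0.53 ± 0.28 (edgeR adjusted p = 0.498) was 0.06 without SE libraries 3 to 5. Casq1, its fast-fibre counterpart, had 0.26 ± 0.26 and Pvalb 0.23 ± 0.30. Pvalb was at 1552, 850.0, 1646, 1075 and 941 CPM in SA libraries 1 to 5 and 1649, 1497, 736, 660.1 and 643 in SE libraries 1 to 5, a pattern like that of Acta1.

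Ryr1, the calcium release channel, was at 303, 220.1, 311, 339 and 305 CPM in SA libraries 1 to 5 and 466, 359, 338, 287 and 318 in SE libraries 1 to 5, with a fold change of -0.26 ± 0.14 (edgeR adjusted p = 0.511). SE library 1 was highest and SA library 2 lowest, and the other libraries overlapped. Its partners were Cacna1s, the voltage sensor, at -0.04 ± 0.16, Cacng1, the sensor's gamma subunit, at -0.25 ± 0.25, Trdn, triadin, which links the channel to calsequestrin, at -0.22 ± 0.15, and Jph1, junctophilin, which holds the membranes together, at 0.01 ± 0.19. Atp2a1, the pump that returns calcium to the store in fast fibres, ranged over 1174 to 1819 CPM in SA and 1377 to 2351 in SE and had -0.16 ± 0.16. Of the exon bases, 21.9% of Atp2a1 overlap Rabep2 and 20% of Cacna1s overlap a predicted gene on the opposite strand. The edgeR adjusted p was at least 0.498 for all 9 genes.

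Fold changes of the 6 energy genes lay between -0.28 and 0.004, with a median of -0.08 (-0.42 without SE libraries 3 to 5). Pfkm, muscle phosphofructokinase, the committing enzyme of glycolysis, was at 265, 191, 274, 249.9 and 247 CPM in SA libraries 1 to 5 and 349, 301, 284, 261 and 290.2 in SE libraries 1 to 5. SA library 2 was lowest and SE library 1 highest, with overlap between the groups, and the fold change was -0.28 ± 0.11 (edgeR adjusted p = 0.385). Pygm, which breaks down glycogen, was at 379, 295, 440.0, 379 and 369 CPM in SA libraries 1 to 5 and 596, 505, 385, 362 and 389 in SE libraries 1 to 5, with -0.26 ± 0.15 (edgeR adjusted p = 0.526). Without SE libraries 3 to 5 it had -0.56 and the lowest edgeR adjusted p of the members in that fit, 0.180. Exon bases of Pfkm overlap a predicted gene on the same strand for 10.2%.

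Ckm, muscle creatine kinase, was at 1105, 716, 1309, 1034 and 923 CPM in SA libraries 1 to 5 and 1510.1, 1267, 815, 746 and 734 in SE libraries 1 to 5, with a fold change of 0.004 ± 0.22. SE libraries 1 and 2 were high and SE libraries 3 to 5 and SA library 2 low, so that the group means were 1017 ± 219.7 and 1014 ± 353 CPM (SD, n = 5 each). The glycolytic enzymes Pgam2 and Eno3 had -0.01 ± 0.23 and -0.02 ± 0.19, and Pgam2 was at 0.001 with total reads only. Mb, myoglobin, which stores oxygen, ranged over 61.9 to 170.0 CPM in SA and 109 to 159 in SE and had -0.15 ± 0.21 (edgeR adjusted p at least 0.806 for these 4). Of its exon bases, 31.9% overlap genes on the opposite strand, as do 15.5% of those of Ckm.

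The size of the swing between libraries differed among members and tended to be lower in those with long transcripts. Over the 33 members with a mean of at least 30 CPM, the SD of log2 CPM and log2 exon length had a Pearson r of -0.618 and a Spearman rho of -0.668, given as a description across genes that share the same 10 libraries. Pgam2, the shortest of the 33 at 840 bases, had an SD of 0.41. The next in length, Tcap, Pvalb and Mylpf, with exon lengths of 948, 1041 and 1062 bases, had SDs of 0.60, 0.55 and 0.52. That of Tcap was 0.55 within SA and 0.14 within SE. Ttn, Neb and Ryr1, with 116825, 26582 and 21838 bases, had 0.23, 0.26 and 0.27. Pfkm, at 0.23 with 3340 bases, had the smallest SD of the 33. A measure of RNA integrity per library was not analysed here.

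**Figure D5:**
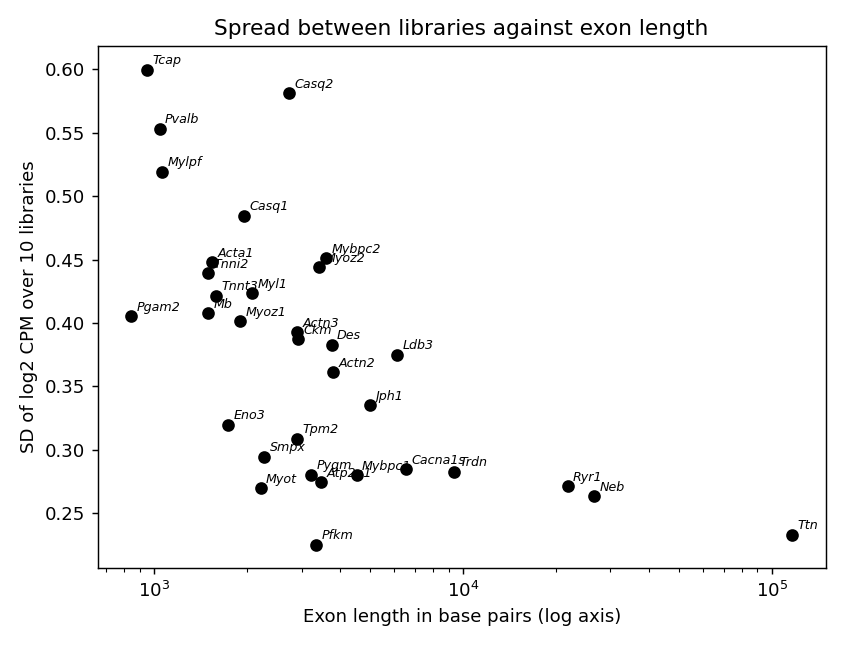
SD of log2 CPM over the 10 libraries against exon length (log axis) for the 33 members with a mean of at least 30 CPM, 1 point per gene. Tcap, Casq2, Pvalb and Mylpf lie highest, and the long Ttn, Neb and Ryr1 lie near the bottom with Pfkm.

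Other muscle genes, taken from 5 lists by symbol, gave no call either. Of 99 genes 96 were tested and none passed the threshold in either direction (edgeR), with 41 values above 0, 55 below and a median of -0.04. At an unadjusted p under 0.05 (edgeR), 7 of the 96 were lower and 1 was higher. Over all tested genes 6.53% were lower and 4.54% higher. DESeq2 called 2 of the 96 lower and 0 higher, against 0.923% and 0.834% of all tested genes. Myh4, Myh1 and Myh2, the fast myosin heavy chains, had 0.06 ± 0.25, 0.05 ± 0.24 and 0.04 ± 0.21 (edgeR adjusted p at least 0.933). The 2 genes DESeq2 called, named after their values were seen, were Fabp3, a fatty acid carrier, and Fbp2, muscle fructose bisphosphatase. Fabp3 was at 12.5, 5.24, 13.2, 10.3 and 9.94 CPM in SA libraries 1 to 5 and 20.4, 18.4, 44.9, 40.5 and 30.8 in SE libraries 1 to 5, all SA below all SE (-1.60 ± 0.29, edgeR adjusted p = 0.0765, DESeq2 adjusted p = 1.90e-05). Fbp2 had -1.34 ± 0.28 (edgeR adjusted p = 0.116). Both genes were highest in SE libraries 3 to 5, where the members were low and the hair follicle sums high. The correlations of Fabp3 and Fbp2 with the mean of the members over the 10 libraries were -0.07 and -0.18.

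A pair of muscle genes outside the members and the lists was among the 3 genes called lower in SA over all genes. They were named after their values were seen, and are set here beside the members. Apobec2, a deaminase-family protein of muscle, was at 92.5, 75.0, 106, 92.7 and 110.3 CPM in SA libraries 1 to 5 and 201, 154, 204, 214 and 204 in SE libraries 1 to 5. Mylk2, the skeletal myosin light chain kinase, was at 29.3, 27.3, 36.2, 28.6 and 29.3 CPM in SA libraries 1 to 5 and 62.2, 42.5, 70.6, 71.5 and 78.8 in SE libraries 1 to 5. For both, SE libraries 3 to 5 lay above SE libraries 1 and 2. For Apobec2, SE library 1 at 201 CPM was close to SE libraries 3 and 5 at 204. Without SE libraries 3 to 5 the edgeR adjusted p was 0.0390 for Apobec2 and 0.0709 for Mylk2, against 0.00303 and 0.0145 with all libraries. The log2 fold changes were -0.89 and -0.79 in that fit, which has 2 SE libraries, and -1.03 and -1.11 with all. Their correlations with the mean of the members over the 10 libraries were -0.03 and -0.21.

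The library-to-library swing of the members was shared by the summed levels of most other muscle lists and less by those of other cells. Over the 10 libraries, the log2 summed CPM of a list correlated with the members' mean log2 CPM at 0.993 for other sarcomere genes, 0.981 for excitation and calcium genes, 0.975 for myosin heavy chains and 0.958 for energy genes. It was 0.14 for muscle regulatory factors. For other cells it was 0.55 for smooth muscle, 0.52 for brown adipocytes, 0.23 for endothelium, 0.17 for adipocytes and 0.08 for Schwann cells. It was 0.06 for fibroblasts, -0.16 for keratinocytes, -0.40 for heart and -0.47 for hair follicle genes. These values describe 10 points that share depth. A sum is set mostly by its most abundant genes, and single tested genes differed. In the sarcomere list they ran from -0.68 for Tnnt2 to 0.98 for Pdlim3. Excitation and calcium genes ran from -0.57 for Atp2a2 to 0.98 for Srl. Myosin heavy chains ran from -0.55 for Myh14 to 0.87 for Myh4, and energy genes from -0.18 for Fbp2 to 0.98 for Cox6a2. Single genes of the smooth muscle list ran from -0.51 for Smtn to 0.94 for Synm. Most of the brown adipocyte sum came from Elovl3 and Cidea. Elovl3 averaged 103 CPM in SA and 61.3 in SE, and Cidea 79.5 and 71.4. Ucp1, which defines brown fat, had 10 reads in all SA and 11 in all SE libraries.

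Outside the members and the other muscle lists, the 10 genes most like the members' mean had correlations of 0.970 to 0.991 over the 10 libraries. They were taken from 13732 candidates, which included genes in the lists of other cells. They were Idh3b, Myo18b, Nexn, Idh3g, Cacng6, Sh3bgr, Fem1a, Eef1a2, Rrp12 and Ndufv1. Idh3b and Idh3g encode subunits of the mitochondrial isocitrate dehydrogenase and Ndufv1 a subunit of respiratory complex I. Idh3b ranged only from 128 CPM in SA library 2 to 162 in SE library 2, and Cacng6, a calcium channel gamma subunit, from 12.6 in SA library 2 to 30.9 in SE library 1. The lowest library was SA 2 for 8 of the 10 and SE 5 for the other 2, Fem1a and Rrp12.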

How the data were processed

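Transcripts were measured by RNA sequencing of whole skin in 10 libraries, 5 SA and 5 SE, grouped by sample title. The authors deposited whole-number read counts per Ensembl gene, for which the submitters' processing notes list STAR 2.4.2a, HTSeq 0.6.1p1, SAMtools and the build GRCm38. The annotation release and the use of strand in counting were not given in the sources used here. Reads in overlapping genes may therefore have been set aside as ambiguous or counted to either gene. A table deposited by the authors holds their DESeq2 comparison, with mean normalized counts, a signal divided by size factors, moderated log2 fold changes, a test statistic (score), p-values and adjusted p-values. It was copied for named values only, and its direction was read by comparing its fold changes with those fitted here. Its 2 columns of group means are not tied to a group by name and were not used.

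Counts were tested with edgeR 4.0.16 (limma 3.58.1, R 4.3.3). Rows naming no gene (5) were left out: no-feature reads were 3.06% to 6.59% of listed reads, ambiguous ones 3.10% to 3.40% and reads not aligned uniquely 23.1% to 26.7%. Genes passed filterByExpr (minimum count 10), libraries were TMM-scaled, and the 2-sided quasi-likelihood test had no covariate, with Benjamini-Hochberg adjustment and a threshold of 0.05. Fold changes used a prior count of 0.125 and the log2 CPM values for spread and correlation one of 2. Exon lengths came from the GENCODE annotation of GRCm38. Replicate pairs differed beyond sampling noise (chi-square per degree of freedom 5.1 to 83.9).

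All 38 members are named. Of the other muscle genes, those past the threshold and Myh4, Myh1, Myh2 and Myh7 were to be named. So were the 10 genes, with a mean CPM of at least 1, that correlated best with the members. That choice left out the members and the other muscle lists, but not the lists of other cells. Members, lists and alternatives were chosen with earlier results of these data known. Alternatives were DESeq2 1.42.0, limma voom, other scalings and filters, a replicate block, single libraries left out, SE libraries 3 to 5 left out and a myosin covariate. The fit was also run on simulated counts with known fold changes and the same dispersion for every gene. The simulation held none of the differences between libraries of a group described above, so it does not test the fit under them.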

Additional observations from a re-analysis of the deposited data

Results flagged for a closer look

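In 4 of 72 checks of a member within a group of 5, the highest or lowest library lay far from the nearest other library relative to the range of the group, by Dixon's criterion (0.71 for 5 values). Chance alone gives about 1 in 20. SA library 2 was the low one for 3 genes. Mybpc1, a myosin-binding protein, was at 334.0 CPM there against 534 to 603 in the other SA libraries, Ldb3 at 244.0 against 393 to 451, and Myot at 99.6 against 165 to 172. Myoz2 was at 63.9 CPM in SE library 2 against 35.6 to 42.8 in the other SE libraries. SA library 2 also had the lowest share of gene reads on the 38 genes, 1.90%. None of the 4 genes passed the test of SA against SE with all libraries.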

How the results depend on the processing

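Across 20 alternatives the count of members called higher or lower in SA stayed 0, apart from 1 lower (Tcap) with DESeq2 and 1 higher (Tnnt1) with the myosin heavy chain covariate, which was added after the data were seen. All genes called, 13 in the reported fit, numbered 297 with DESeq2, 125 with the covariate, 41 without SE libraries 3 to 5 and 7 to 225 with 1 library left out. Other muscle genes called lower numbered 2 with DESeq2, 1 with the covariate, 1 without a filter on low counts and 0 to 2 with 1 library left out. The members' median fold change was -0.36 without SE libraries 3 to 5 and -0.11 to 0.08 with 1 library left out. The fit without SE libraries 3 to 5 has 2 SE libraries, which limits its precision.

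Members whose log2 fold change changed sign, none of them called in either fit, were as follows, and the cause was not tested. Without SE libraries 3 to 5 they were Acta1 -0.21, Tnnt3 -0.36, Tnni2 -0.40, Mylpf -0.35, Myl1 -0.30, Mybpc2 -0.36, Myoz1 -0.44, Ldb3 -0.31, Jph1 -0.34, Casq1 -0.29, Pvalb -0.37 and Ckm -0.44. With limma voom they were Pgam2 0.045 and Eno3 0.011, with the covariate Jph1 -0.050 and Ckm -0.041, and without a filter Myoz2 0.013 and Pgam2 0.0030. With scaling by total gene reads they were Myoz2 0.0047 and Pgam2 0.0010, and with scaling that leaves out the muscle genes Myoz2 0.0062. With 1 library left out at a time, the ranges that crossed 0 were Actn2 -0.15 to 0.099, Actn3 -0.22 to 0.11, Cacna1s -0.12 to 0.062, Ckm -0.10 to 0.19, Des -0.14 to 0.16, Eno3 -0.11 to 0.12, Jph1 -0.098 to 0.12, Ldb3 -0.015 to 0.22, Mb -0.32 to 0.015, Myoz1 -0.068 to 0.20, Myoz2 -0.16 to 0.17, Neb -0.14 to 0.062, Pgam2 -0.11 to 0.16, Smpx -0.17 to 0.022, Tnni1 -0.41 to 0.051, Tnni2 -0.0090 to 0.27 and Tpm2 -0.11 to 0.079. The stricter filter, CPM of at least 1 in 5 libraries, left Tnni1 out of the test.

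Same-numbered SA and SE libraries showed no sign of pairing in their correlations, which cannot exclude it. Deviations from the group means of same-numbered SA and SE libraries correlated at -0.288 to 0.0715 over 5 pairs, and 1 of 10 libraries correlated best with its own number. With the replicate number as a block, 10 genes were called, 0 members in either direction and 2 other muscle genes lower, and the sign changed for Pgam2 0.045 and Eno3 0.0088.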

Other observations

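Transcription factors that drive muscle genes did not follow the members as a group. Of 14 such genes 2 had fold changes above 0 and 12 below, with a median of -0.16, and none passed the threshold (edgeR). At an unadjusted p under 0.05 (edgeR) there were 2 of the 14, against 6.53% lower and 4.54% higher over all tested genes. Myog, which drives differentiation of muscle precursors, and Myf6, the regulator of mature fibres, correlated with the members' mean over the 10 libraries at 0.79 and 0.75. Mef2a, Tead4 and Nfatc1, which other skin cells also express, lay at -0.43, -0.53 and -0.59. Myog had -0.38 ± 0.28 (edgeR adjusted p = 0.612). These genes, and Actc1 and Tnnt2 below, were named after their values were seen.

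Actc1, the actin of heart and developing muscle, was at 108, 51.0, 115, 105 and 29.5 CPM in SA libraries 1 to 5 and 64.5, 58.3, 5.56, 6.82 and 5.16 in SE libraries 1 to 5. SE libraries 1 and 2 lay within or near the SA range and SE libraries 3 to 5 below it, and the fold change was 1.54 ± 0.72 (edgeR adjusted p = 0.464). Tnnt2, the heart form of troponin T, was at 4.41, 5.15, 3.07, 2.89 and 3.31 CPM in SA libraries 1 to 5 and 3.83, 3.78, 5.16, 6.55 and 5.76 in SE libraries 1 to 5 and had a correlation of -0.68 with the members' mean.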
